A study of Homo sapiens with 36 samples.

Results

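The 39 protein-coding *HOX* genes were followed through 36 RNA sequencing libraries of a human cell line exposed to 2 oxidants. Members were taken by name, as every protein-coding gene whose symbol is *HOXA*, *HOXB*, *HOXC* or *HOXD* followed by a number, out of 19985 protein-coding genes and 61587 genes in the count table. *HOXA* contributed 11 genes on chromosome 7, *HOXB* 10 on chromosome 17, *HOXC* 9 on chromosome 12 and *HOXD* 9 on chromosome 2 (GRCh38). All libraries came from HEK-293T, a transformed line of human embryonic kidney origin, in which *TXNL1* had been knocked out and a single-cell clone isolated. *TXNL1* encodes a thioredoxin-like protein that binds the proteasome.

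The knockout cells carried an empty vector or, from a lentiviral CMV promoter, wild-type TXNL1 (WT), the D162R R234D double mutant of the proteasome-binding surface (DR-RD), or the SxxS mutant of the thioredoxin active site. Each of these 4 lines was untreated (labelled DMSO), exposed to 100 µM arsenite or exposed to 600 µM hydrogen peroxide for 6 h, with 3 libraries in each of 12 groups. The study's methods describe plate wells treated in triplicate, and no source states that these came from cultures kept apart or from different days, so the p-values measure the spread between these libraries.

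*HOX* genes encode homeodomain transcription factors that assign position along the head-to-tail axis of the embryo, the limbs and the genitourinary tract. They lie in 4 clusters in which the order of the genes follows their order of expression along the body, and genes of the same number in different clusters (paralogs) descend from a common ancestor. Adult tissues and cell lines keep a *HOX* pattern, which Polycomb and trithorax (MLL) complexes maintain and which PBX and MEIS partner proteins help to read out.

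Library totals ran from 42072410 to 174119002 counts with a median of 66016833. WT arsenite replicate 1 and WT hydrogen peroxide replicate 2 stood apart from their groups, with SDs of 0.502 and 0.571 about the group median on the log2 scale over 15675 genes, against at most 0.173 in the other 34 libraries. *TXNL1* was counted at 28.6–31.7 CPM (counts per 1000000 of the scaled library) in the untreated vector line and at 51.7–66.2 CPM in the 3 complemented lines, so the edited transcript was still counted in the knockout. Of 9 markers of this line 5 passed 1 CPM per kilobase in every untreated library, including *VIM* at a median of 91.0 CPM per kilobase, whereas the kidney gene *PAX2* stood at 0.043. Summed over the list, the 10 markers of other cell types stood at 1.78–3.03 CPM in untreated, 1.65–3.69 CPM in arsenite and 2.06–3.61 CPM in hydrogen peroxide libraries, and the 9 other than *GFAP* each had a median of 0 CPM in untreated libraries.

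In untreated cells, 31 of 39 *HOX* genes (79.5%) were expressed, defined as at least 1 CPM per kilobase of gene length in all 12 untreated libraries. By the same rule 52.0% of protein-coding genes were expressed. The *HOXA* cluster had 10 of 11 genes expressed, *HOXB* 9 of 10, *HOXC* 7 of 9 and *HOXD* 5 of 9. None of the 39 crossed the level in only some of the libraries.

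The order of the levels in the 12 untreated libraries opened with 2 genes that did not overlap any other. *HOXD13*, which patterns the digits and the genitourinary tract, was the highest at 50.9–56.0 CPM per kilobase (median 52.9). *HOXB9*, a gene of the thoracic skeleton, followed at 31.9–36.4 CPM per kilobase (median 34.7). The next genes formed a continuous run in which each one's range overlapped that of its neighbour. *HOXA5*, a gene of lung and airway development, led this run at a median of 17.6 CPM per kilobase, ahead of *HOXD10* at 16.6, *HOXC10* at 16.04, *HOXA10* at 16.01, *HOXA11* at 15.7, *HOXB6* at 13.8, *HOXA9* at 12.8 and *HOXD11* at 12.6. Medians of *HOXC13*, *HOXC9*, *HOXB13*, *HOXA6*, *HOXB7*, *HOXA13*, *HOXA7* and *HOXC4* lay between 10.9 and 5.60 CPM per kilobase.

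A break separated *HOXC4* from *HOXC6*, *HOXC11*, *HOXB8* and *HOXD9*, with medians from 3.58 down to 3.04 CPM per kilobase. A further break separated these from *HOXB2*, *HOXA4*, *HOXB5*, *HOXC8*, *HOXA3*, *HOXB3*, *HOXB4* and *HOXD8*, with medians from 2.33 to 1.43. The expressed genes nearest the limit were *HOXB4* at 1.34–2.05 and *HOXD8* at 1.29–1.60 CPM per kilobase. Those nearest below it were *HOXC5* at 0.568–0.826 and *HOXD4* at 0.475–0.924.

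The anterior end of *HOXD* formed a run below the limit: *HOXD1*, *HOXD3* and *HOXD4* had medians of 0.419, 0.464 and 0.634 CPM per kilobase. *HOXD12* stood at 0.10 between the neighbours *HOXD11* and *HOXD13*, and *HOXC12* at 0.240 between *HOXC11* and *HOXC13*. *HOXA2*, a gene of the hindbrain and the second branchial arch, had a median of 0.119 CPM per kilobase and rested on 1 to 44 counts per untreated library. *HOXB1*, the hindbrain gene at the end of its cluster, had no count in 34 of 36 libraries and 5 counts in all, where 3 counts correspond to 0.0172–0.0713 CPM depending on the library. Such floors cover counting error only.

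**Figure D1:**
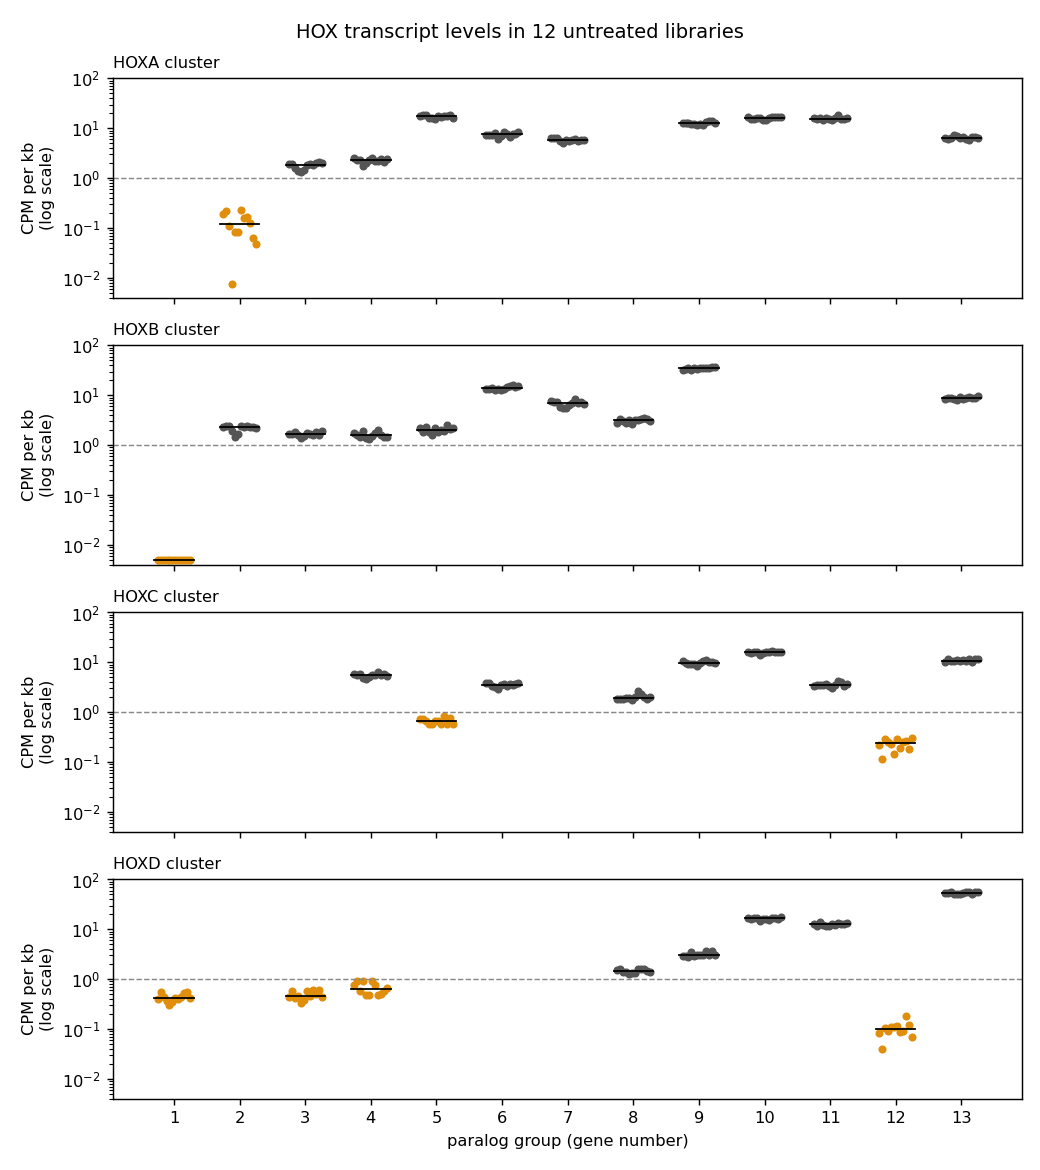
Level of the *HOX* genes in the 12 untreated libraries (points), by cluster and paralog group, as CPM per kilobase on a log axis with the median as a bar and the limit of 1 as a dashed line; zeros (*HOXB1*) are drawn at the bottom. Grey genes are expressed, and orange ones are the 8 below the limit, which include *HOXD1*, *HOXD3*, *HOXD4* and both members of group 12.

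Arsenite lowered most *HOX* transcripts and raised a few. Averaged over the 4 lines, 22 of the 38 members tested were lower and 6 were higher, at an adjusted p under 0.05 (edgeR's quasi-likelihood test, Benjamini-Hochberg adjusted over the 22486 genes tested). Among all genes tested 31.5% were lower and 37.4% higher, against 57.9% and 15.8% of the members. The median log2 fold change of the members was -0.28 and that of all genes was 0.06. Libraries did not overlap (all 12 arsenite libraries below all 12 untreated ones) for 14 members, 36.8%, against 16.6% of all genes tested, and all arsenite libraries were above all untreated ones for 3 members, 7.89%, against 13.4%. Of the 9 markers of this cell line 4 were higher and 3 lower with arsenite, with *ENO2* at 1.31 and *SALL1* at -2.40 on the log2 scale, and the part of such shifts in the *HOX* values was not tested. In bulk RNA, fewer cells that make a transcript and less of it per cell cannot be told apart.

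**Figure D2:**
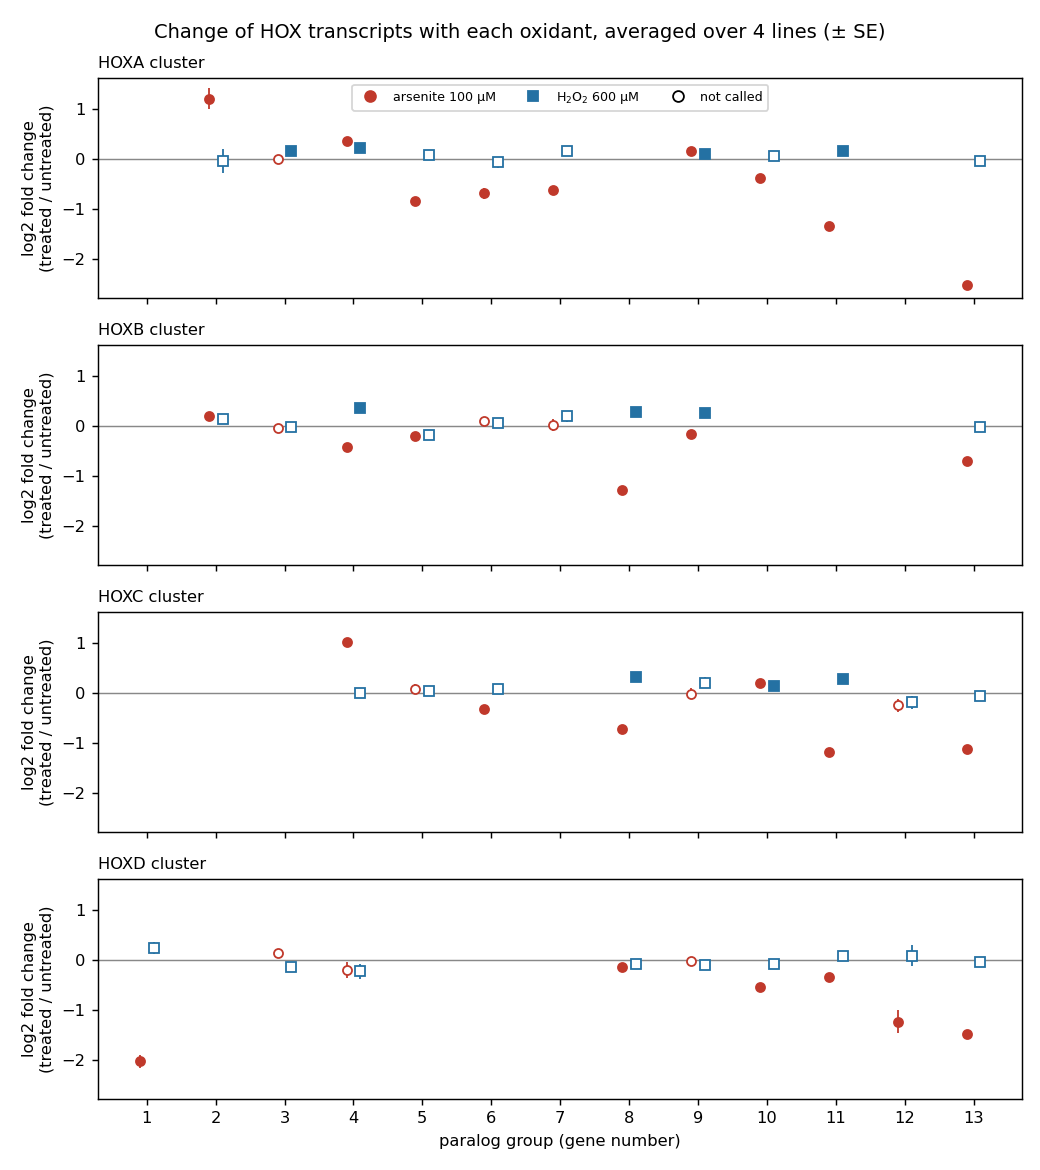
Log2 fold change of the *HOX* genes with arsenite (red circles) and hydrogen peroxide (blue squares) against untreated cells, averaged over the 4 lines, ± SE, by cluster and paralog group; filled symbols passed an adjusted p under 0.05. The arsenite falls reach -2.53 at *HOXA13* and -2.04 at *HOXD1*, and the hydrogen peroxide values lie between -0.22 and 0.36.

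All 4 genes of paralog group 13 fell with arsenite. *HOXA13*, which with *HOXD13* builds the hand, the foot and the urogenital sinus, showed the largest change of any member. In the vector line it went from 32.0, 30.4 and 32.6 CPM to 4.89, 6.38 and 5.89 CPM. In the WT line it went from 36.8, 34.9 and 32.4 CPM to 4.54, 5.75 and 5.72 CPM. The DR-RD line went from 33.2, 31.0 and 29.3 to 6.71, 5.34 and 5.55 CPM, and the SxxS line from 33.5, 33.5 and 33.0 to 5.60, 5.78 and 5.95 CPM. Every arsenite library was thus far below every untreated one, and the log2 fold change of -2.53 (SE 0.06, adjusted p = 6.98e-25 by edgeR) left 17.3% of its level. Hydrogen peroxide libraries of the same gene held 21.4–35.9 CPM (median 32.4), with the lowest value in the outlying WT replicate 2.

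*HOXD13* fell from 123–135 CPM in untreated to 41.2–49.2 CPM in arsenite libraries, a log2 fold change of -1.48 (SE 0.03, adjusted p = 2.34e-28 by edgeR). It was at 117–131 CPM with hydrogen peroxide. *HOXC13*, a gene of hair and nail, fell from 23.9–27.6 to 10.7–14.02 CPM (log2 fold change -1.12, SE 0.04). *HOXB13*, known for its part in the prostate, fell from 24.2–29.2 to 14.9–17.4 CPM (-0.71, SE 0.04). Untreated and arsenite libraries did not overlap for any of these genes.

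The falls were not even across neighbours. In *HOXA* the change grew from the middle of the cluster to its posterior end, with log2 fold changes of 0.16 at *HOXA9*, -0.37 at *HOXA10*, -1.34 at *HOXA11* and -2.53 at *HOXA13*. In *HOXD* it ran from -0.02 at *HOXD9*, which was not called, through -0.54 at *HOXD10* and -0.35 at *HOXD11* to -1.24 at *HOXD12* and -1.48 at *HOXD13*. *HOXD10* and *HOXD11* share 452 exon bases on the same strand, so their counts are uncertain. The value of *HOXD12* rests on 6 to 38 counts per untreated and 1 to 19 per arsenite library. Its untreated and arsenite libraries overlapped, and it was called lower in 2 of the 4 lines. In *HOXC*, by contrast, *HOXC10* rose by 0.20 beside *HOXC11*, which fell by 1.19 on the log2 scale. *HOXC12*, between the falls of *HOXC11* and *HOXC13*, had -0.25 and was not called.

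Promoter windows are shown for the expressed members with the 3 deepest falls and the largest rise among those whose window in the RefSeq table starts within 50 bases of the annotated gene start. Each runs from 250 bases before to 50 bases after the start of the gene (GRCh38.p14), 5′ to 3′ on the strand of the gene. Capitals mark the letters CCAAT or TATAAA on either strand. The windows are *HOXA13* at chr7:27200042-27200341 on the minus strand, *HOXD13* at chr2:176092471-176092770 on the plus strand, *HOXA11* at chr7:27185183-27185482 on the minus strand and *HOXC4* at chr12:54016638-54016937 on the plus strand.
HOXA13: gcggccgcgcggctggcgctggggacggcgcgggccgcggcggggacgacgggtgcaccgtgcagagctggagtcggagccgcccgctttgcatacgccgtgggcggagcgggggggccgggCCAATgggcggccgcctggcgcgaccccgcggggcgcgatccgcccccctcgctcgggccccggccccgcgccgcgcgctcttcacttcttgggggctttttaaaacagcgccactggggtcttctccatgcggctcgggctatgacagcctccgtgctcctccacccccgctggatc
HOXD13: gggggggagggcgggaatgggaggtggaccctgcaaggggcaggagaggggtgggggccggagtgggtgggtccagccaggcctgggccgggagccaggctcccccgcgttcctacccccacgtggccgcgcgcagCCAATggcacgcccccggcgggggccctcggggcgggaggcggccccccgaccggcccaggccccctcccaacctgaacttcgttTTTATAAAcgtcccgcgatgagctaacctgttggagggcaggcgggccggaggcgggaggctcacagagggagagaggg
HOXA11: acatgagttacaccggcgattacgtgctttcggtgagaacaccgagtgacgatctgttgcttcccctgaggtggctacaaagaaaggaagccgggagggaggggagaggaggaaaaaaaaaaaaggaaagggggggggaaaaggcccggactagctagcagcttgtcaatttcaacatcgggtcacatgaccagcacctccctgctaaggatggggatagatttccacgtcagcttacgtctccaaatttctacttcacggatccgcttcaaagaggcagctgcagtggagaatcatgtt
HOXC4: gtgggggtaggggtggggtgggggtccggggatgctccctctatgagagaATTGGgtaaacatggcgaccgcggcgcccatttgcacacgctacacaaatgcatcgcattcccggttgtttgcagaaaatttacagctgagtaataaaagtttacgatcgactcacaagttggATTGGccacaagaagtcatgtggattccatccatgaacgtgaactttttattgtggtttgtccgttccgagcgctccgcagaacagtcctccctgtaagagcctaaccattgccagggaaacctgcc
CCAAT was found in the windows of 17 of the 20 members that have one, and in 66.7% of the 27 member windows against 34.6% of all 35116 windows of the same length. *HOXA3* holds 7 of the 27 windows, and *HOXC4* and *HOXC5* share theirs. These are the only *HOXC* members with a window, *HOXB1* is the only *HOXB* member, and the rest are *HOXA* and *HOXD* genes. A member counts among the 17 if any of its windows matched, and the share per gene over all genes was not computed. In *HOXA13* the match began 128 bases before the start, in *HOXD13* 114 bases and in *HOXC4* 200 and 77 bases before it, and *HOXA11* had none. TATAAA was found in windows of 4 members and in 11.5% of all windows, and in *HOXD13* it lay 29 and 27 bases before the start, on opposite strands that overlap. TGANTCA, the AP-1 letters, were in none of the 27 windows and in 7.71% of all windows. GCGNGGGCG, the EGR1 letters, were found in 11.1% of member windows (*HOXA7*, *HOXA9* and *HOXD1*) against 9.43% of all, TGATNNAT, the HOX-PBX letters, in 11.1% against 7.40%, and GAANNTTC, the core of the heat shock element, in 1 member window (*HOXD3*) against 6.77% of all. Both strands were searched, and a match is a description of letters and not of a bound site. The member windows held a median of 22 CG pairs, against 14 over all windows, at nearly the same content of G and C (58.0% against 58.7%).

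*HOXA11*, a gene of the forearm, kidney and uterus, fell from 39.7–48.4 CPM in untreated to 15.0–18.8 CPM in arsenite libraries (log2 fold change -1.34, SE 0.04, adjusted p = 2.30e-23 by edgeR). Over 27.2% of its exon length an antisense RNA, *HOXA11-AS*, lies on the opposite strand, and whether the counting used strand was not stated. *HOXA11-AS* fell less, by 0.82 on the log2 scale. *HOXC11*, which shares no exon bases with another gene, fell from 9.94–13.6 to 4.43–5.62 CPM.

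*HOXD1*, known in sensory neurons, was below the expression limit and still fell, from 0.570–1.05 to 0.077–0.339 CPM (-2.04, SE 0.13). Another gene on the opposite strand covers 52.4% of the exon length of *HOXD1*.

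The 3 genes of group 8 also fell together. *HOXB8*, a gene of the spinal cord and of blood progenitors, fell from 6.40–8.55 to 2.76–3.47 CPM without overlap (log2 fold change -1.28, SE 0.04). *HOXC8* fell by 0.73 and *HOXD8* by 0.15 on the log2 scale, the latter with an adjusted p of 0.024 by edgeR that rose to 0.053 without WT arsenite replicate 3. Genes of groups 5 to 7 in *HOXA* fell in a block. *HOXA5* dropped from 26.5–32.3 to 14.4–18.8 CPM (-0.84), while *HOXA6* had -0.69 and *HOXA7* -0.62. *HOXA7* shares 62.5% and *HOXA6* 39.3% of its exon length with the antisense *HOXA-AS3*, which fell by 0.55. The other members that fell were *HOXB4*, a gene of blood stem cells (-0.42), *HOXC6* (-0.31), *HOXB5* (-0.20) and *HOXB9* (-0.15).

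Of the 6 members that rose with arsenite, 2 at least doubled. *HOXC4*, the most anterior gene of its cluster, went from 13.02–17.7 CPM in untreated to 24.1–34.9 CPM in arsenite libraries (log2 fold change 1.03, SE 0.03, adjusted p = 1.33e-21 by edgeR). It was higher in 12 of 12 arsenite libraries than in any untreated one. Its window is that of the HOXC4 sequence above, and 17.5% of its exon length is shared with *HOXC6*, which fell. *HOXA2* rose by 1.21 (SE 0.21) on the log2 scale, but from 0.0172–0.538 to 0.342–0.827 CPM, with overlapping libraries. The smaller rises were *HOXA4* at 0.37, *HOXB2* and *HOXC10* at 0.20, and *HOXA9*, a gene of blood progenitors and leukaemia, at 0.16. *HOXA4* shares 47.8% of its exon length with other genes. The 10 members not called were *HOXA3*, *HOXB3*, *HOXB6*, *HOXB7*, *HOXC5*, *HOXC9*, *HOXC12*, *HOXD3*, *HOXD4* and *HOXD9*, with values from -0.25 to 0.14. *HOXB7* and *HOXC9* were called without both outlying WT libraries, though not without WT arsenite replicate 1 alone. Other alternatives called *HOXB6*, *HOXC12*, *HOXD3* or *HOXD4*.

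**Figure D3:**
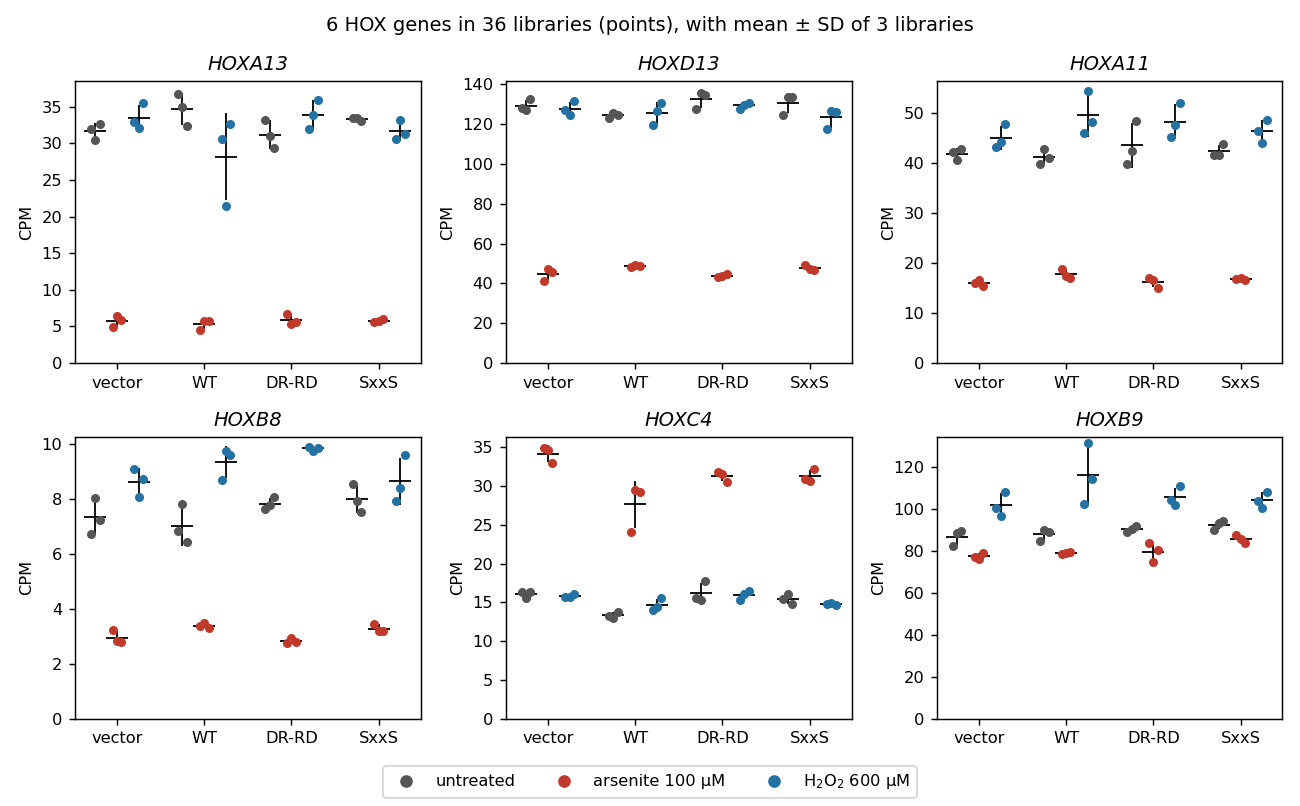
CPM of 6 *HOX* genes in all 36 libraries (points) with the mean ± SD of 3 libraries, by line and treatment, on linear axes from 0. *HOXA13*, *HOXD13*, *HOXA11* and *HOXB8* are low in every arsenite library, *HOXC4* is high in them, and the hydrogen peroxide libraries of *HOXB9* (96.8–132 CPM) lie above its untreated ones.

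By cluster, arsenite lowered 7 and raised 3 of 11 tested genes in *HOXA*, lowered 5 and raised 1 of 9 in *HOXB*, lowered 4 and raised 2 of 9 in *HOXC*, and lowered 6 and raised 0 of 9 in *HOXD*. By class of paralog group, 2 of 7 anterior genes (groups 1 to 3), 9 of 15 central genes (groups 4 to 8) and 11 of 16 posterior genes (groups 9 to 13) were lower, with median log2 fold changes of -0.01, -0.20 and -0.46. Among all genes tested 31.5% were lower and 37.4% higher, so the anterior share of 28.6% lower was near that of all genes. The summed level of *HOXD* was 84.2–92.9 CPM per kilobase in untreated and 43.97–50.1 in arsenite libraries. That of *HOXA* was 92.1–100.5 and 58.0–65.2. *HOXD* and *HOXA* sums did not overlap between the treatments, whereas those of *HOXB* (70.2–79.96 and 63.5–79.9) and *HOXC* (48.4–57.5 and 48.03–59.1) did. WT arsenite replicate 1, the outlying library, held the highest arsenite sum of *HOXB*, and the next was 70.5 CPM per kilobase.

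**Figure D4:**
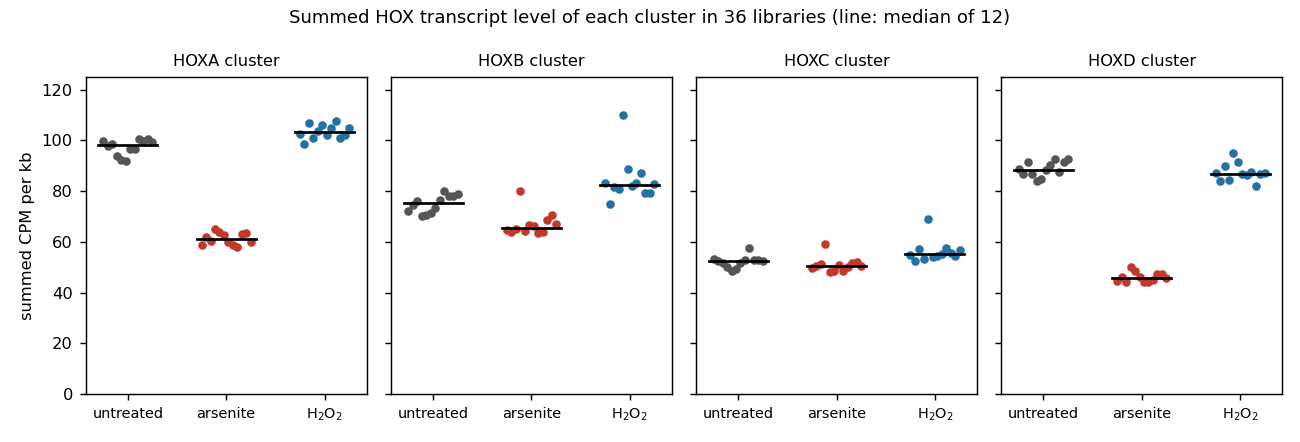
Sum of CPM per kilobase over the genes of each cluster in 12 untreated, 12 arsenite and 12 hydrogen peroxide libraries (points), with the median as a line. The arsenite sums of *HOXA* and *HOXD* lie below all untreated sums, and those of *HOXB* and *HOXC* overlap them.

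Across the 38 members tested, the arsenite change was compared with features of the genes as a description, since neighbouring genes and paralogs are not independent. The correlation was -0.56 (Pearson's r; Spearman's rho -0.50) with the length of the 3′ untranslated region, which is 3834 bases in *HOXA13*. Over 14093 tested protein-coding genes the same correlation was -0.18 (rho -0.28). It was -0.38 with paralog number, -0.18 with the untreated level on the log2 scale, 0.20 with GC content and 0.14 with the density of ATTTA, a motif of unstable messages. The members had a median of 2.09 ATTTA per kilobase of 3′ untranslated region against 1.64 over all protein-coding genes. Of the 13 members that share no exon bases with another gene, 8 were lower and 1 was higher, and of the 25 that share some, 14 were lower and 5 higher. Among all genes tested these shares were 31.5% lower and 37.4% higher.

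Within each line the arsenite calls of the members were mostly downward. In the vector line 21 members were called (19 lower, 2 higher) against 43.4% of all genes (21.4% lower, 22.1% higher). The WT line had 27 (18 lower, 9 higher) against 53.6% (24.9% lower, 28.7% higher). The DR-RD line had 22 (19 lower, 3 higher) against 44.0% (21.5% lower, 22.5% higher). The SxxS line had 23 (19 lower, 4 higher) against 43.6% (21.5% lower, 22.1% higher). Called lower in all 4 lines were 16 of 38 members, against 16.1% of all genes tested, and called higher in all 4 were *HOXC4* and *HOXC10*, against 14.9%. The count of members called in WT was 22 without WT arsenite replicate 1. The 3 WT arsenite libraries held *HOXB7* at 22.5, 9.70 and 10.2 CPM, the first in the outlying library, against 9.04, 8.62 and 8.30 CPM untreated. *HOXC9* was likewise at 33.0, 14.5 and 13.7 CPM, and at 18.4, 33.7 and 16.7 CPM in WT hydrogen peroxide libraries. Without both outlying libraries the WT value of *HOXB7* went from 0.72 to 0.18 (adjusted p = 0.19 by edgeR).

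In edgeR's test of arsenite by line no member was called (7 had an unadjusted p under 0.05, and DESeq2 called 1, *HOXA7*), nor was any of all genes (0% called). The untreated complemented lines gave 0 members called against vector by edgeR. At an unadjusted p under 0.05 there were 7 in WT, 1 in DR-RD and 1 in SxxS, DESeq2 called 2, 0 and 0, and all genes were called at 0.196%, 0.0267% and 0.0178%. The WT count was 6, all lower, without both outlying libraries.

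With hydrogen peroxide the members' median log2 fold change was 0.08, and the calls were upward. Of the 9 markers of this cell line 4 were also higher and 0 lower by edgeR, with a median of 0.20, and the part of that shift in the *HOX* values was not tested. Averaged over lines, 10 of 38 members were higher and 0 lower by edgeR, against 6.78% and 5.30% of all genes tested. At an unadjusted p under 0.05 there were 16 members, DESeq2 called 11, all higher, and without both outlying WT libraries 12 were higher and 3 lower. *HOXB9* was the one member whose hydrogen peroxide libraries all lay above all untreated ones, at 96.8–132 against 82.5–94.2 CPM (log2 fold change 0.26, SE 0.03), where 0.551% of all genes did so and 0.600% lay below. *HOXB4* had the largest value, 0.36 (SE 0.07), from 2.68–4.11 to 3.44–5.07 CPM. The others were *HOXC8* at 0.33, *HOXC11* at 0.27, *HOXB8* at 0.27, *HOXA4* at 0.22, *HOXA3* at 0.16, *HOXA11* at 0.16, *HOXC10* at 0.13 and *HOXA9* at 0.11. Of 35 alternatives *HOXA3* kept its call in 17, *HOXA4* in 27 and *HOXA9* in 34, and the remaining called members in all 35. *HOXB8*, *HOXB9*, *HOXB4*, *HOXC8*, *HOXC11* and *HOXA11* therefore carried calls of opposite sign with the 2 oxidants, which share the untreated libraries. None of the 9 *HOXD* genes was called by edgeR.

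Set against each other, arsenite and hydrogen peroxide differed for 26 members, with 21 lower in arsenite and 5 higher, against 31.3% and 37.3% of all genes. The differences, of arsenite minus hydrogen peroxide, were -2.49 at *HOXA13*, -2.27 at *HOXD1*, -1.56 at *HOXB8* and -1.50 at *HOXA11* on the log2 scale. They were 1.26 at *HOXA2* and 1.02 at *HOXC4*.

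Line by line, hydrogen peroxide calls were few. The vector line had 0 members called by edgeR (7 at an unadjusted p under 0.05, 2 by DESeq2) against 1.35% of all genes. DR-RD had 1, *HOXB8* at 0.33, against 1.03%, and SxxS had 1, *HOXB5* at -0.58, against 1.02%. Both calls were lost when any 1 library of the 2 groups compared was left out, and without the filter. Other alternatives gave more, at most 4 members in vector, 3 in DR-RD and 5 in SxxS. The 5 came without both outlying WT libraries, which belong to none of these groups but enter the shared estimate of spread. In DR-RD the same-numbered untreated and hydrogen peroxide libraries correlated (each at least 0.153, mean 0.292), and with the replicate block the count there was 0. The same held for WT hydrogen peroxide with SxxS arsenite (mean 0.395), of different lines and treatments, so these correlations do not establish pairing. WT had 13, all higher, against 8.06%, and 6 without WT hydrogen peroxide replicate 2, 5 with a GC offset and 0 in a fit of only the groups compared. In the test of hydrogen peroxide by line 0 members were called by edgeR (9 at an unadjusted p under 0.05, 2 by DESeq2), against 0.685% of all genes.

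**Figure D5:**
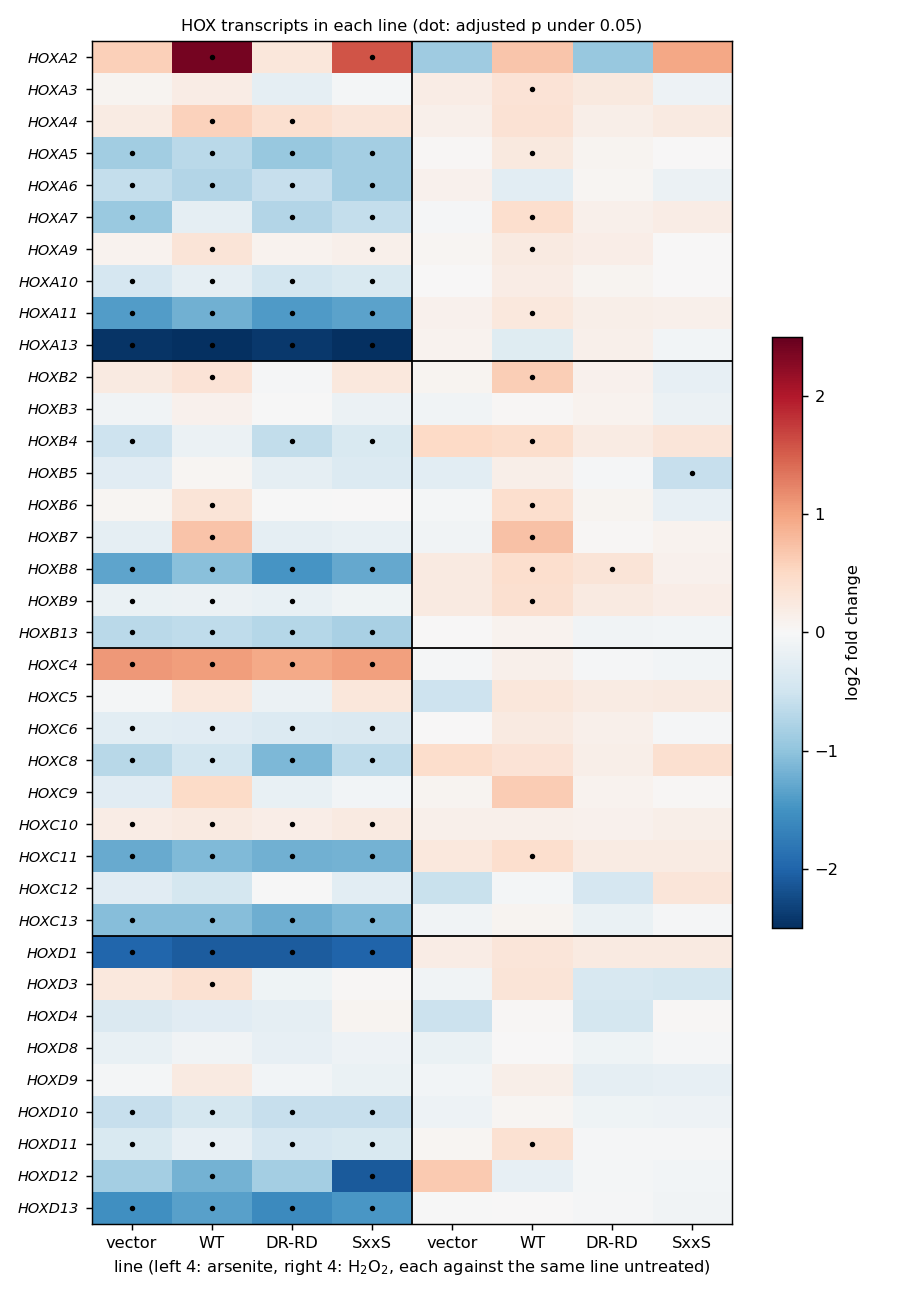
Log2 fold change of tested *HOX* genes (rows, grouped by cluster) in each line with arsenite (left 4 columns) and hydrogen peroxide (right 4 columns), with a dot at an adjusted p under 0.05. Blue rows for *HOXA11*, *HOXA13*, *HOXC11*, *HOXC13*, *HOXD1* and *HOXD13* run through the 4 arsenite columns, and *HOXC4* is red in all 4.

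With hydrogen peroxide averaged over lines, 12.1% of all genes tested were called. In the lists that follow, 1 of 16 RNAs from within the clusters, 2 of 9 PBX, MEIS and PKNOX genes and 2 of 24 Polycomb genes were called. So were 2 of 18 MLL and demethylase genes, 2 of 12 retinoic acid genes, 2 of 7 upstream factors and 1 of 12 genes beside the clusters. The RNAs transcribed from within the clusters went both ways with arsenite: of 19 listed, 16 were tested, 8 were higher and 6 lower. Of all genes tested, 37.4% were higher and 31.5% lower with arsenite. *HOTTIP*, which starts beside *HOXA13* and is known to act on posterior *HOXA* genes, fell by 1.17 on the log2 scale, from a median of 0.749 to 0.352 CPM, and *HOXA11-AS* fell by 0.82. *HOXA-AS2* and *HAGLR* rose by 0.51 and 0.48. Antisense RNAs that overlap *HOX* exons also included *HOTAIRM1* (0.39), *HOXA10-AS* (-0.21), *HOXB-AS1* (0.24), *HOXB-AS3* (0.23), *HOXC-AS2* (-0.71), *HOXC-AS3* (0.22), *HOXC13-AS* (0.26) and *HOXD-AS2* (-0.15, not called).

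Among the PBX, MEIS and PKNOX proteins that bind DNA with HOX proteins, 4 of 9 were higher and 2 lower with arsenite. *PBX4* and *PKNOX2* rose by 1.83 and 1.36, and *MEIS1*, a partner of posterior HOX proteins, fell by 1.17 on the log2 scale, from 12.6–15.4 to 5.36–6.93 CPM. *MEIS2* fell by 0.11. Of 24 Polycomb genes 9 were higher and 11 lower, where 37.4% of all genes tested were higher and 31.5% lower. *RYBP* and *MTF2* rose by 1.17 and 0.87, and *CBX8* and *CBX6*, which encode readers of the repressive histone mark, fell by 1.34 and 1.20. Of 18 genes of the MLL complexes and the H3K27 demethylases 4 were higher and 10 lower. *KMT2A* and *KMT2B*, histone methyltransferases that keep *HOX* genes active, fell by 1.00 and 1.04, and *KDM6A* and *ASXL1* rose by 1.26 and 0.47.

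Of 12 tested retinoic acid genes 6 were higher and 2 lower with arsenite, against 37.4% and 31.5% of all genes tested. *ALDH1A3* and *RARB* rose by 0.60 and 0.59, and *CYP26A1* and *RXRA* fell by 0.76 and 0.74. Of 7 tested upstream factors 1 was higher, *EGR2* at 0.92, and 6 were lower, among them *CDX2* at -0.60. Beside the clusters, 6 of 12 tested genes were higher and 4 lower. *EVX2*, the homeobox gene next to *HOXD13*, fell by 1.56 and *LNPK* beyond it by 0.54, while *TTLL6* and *NFE2* rose by 1.56 and 1.17. Apart from *LNPK* these values rest on low levels. From untreated to arsenite libraries the median went from 0.747 to 0.292 CPM for *EVX2*, from 0.075 to 0.285 for *TTLL6* and from 0.129 to 0.268 for *NFE2*.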

How the data were processed

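The deposited file holds raw counts per gene in 36 libraries. According to the study's methods and the labels, the authors sequenced strand-specific messenger RNA libraries as paired-end reads and aligned them to GRCh38 with QuasR. The counting step, its annotation and its use of strand are not given in the sources used here. Every count column matched a sample. A gene length column, equal to the merged exons of GENCODE 44 for all 39 members, served for levels per kilobase.

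The authors' filter of at least 10 counts in the 3 untreated vector libraries was applied, which left 22486 genes and 38 members (*HOXB1* was not tested). Counts were fitted in edgeR 4.0.16 (R 4.3.3) with 1 mean for each of 12 groups, TMM scaling and the robust quasi-likelihood test, p-values adjusted by Benjamini-Hochberg across all of them, so that all groups shared the estimate of spread. The biological coefficient of variation was 12.4%. On simulated counts with 200 genes changed by arsenite in all lines and another 200 in WT alone, the comparison over lines recovered 95.5% of the former, and 15 of its 277 calls were genes changed in neither set. DESeq2 1.42.0, another scaling, other filters, fits of the compared groups alone, GC offsets and leaving out each library were tried as alternatives. Named with values are the members expressed or called and those nearest the expression limit, and, for the lists, the 2 largest changes in each direction and any RNA that shares exons with a *HOX* gene.

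The members, the gene lists and the tests were chosen with earlier results of these data known. Depth ran from 42072410 to 174119002 counts per library, and no pair of libraries of the same group agreed within sampling noise (chi-square per degree of freedom of at least 3.31). Libraries of different groups were not compared in this way. Promoter windows came from a RefSeq table (GRCh38.p14), which matched 20 members. The values of 2 genes, a member and an upstream factor, are not reported or plotted one by one here.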

Additional observations from a re-analysis of the deposited data

Results flagged for a closer look

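In 4 members every library of one line moved one way and every library of another line the opposite way. This held for 1 of 38 members with arsenite (2.63%, against 1.03% of all genes tested) and for 3 with hydrogen peroxide (7.89%, against 4.41%). With arsenite, *HOXB7* had a log2 fold change of 0.72 in WT and -0.22 in vector. With hydrogen peroxide, *HOXB2* had 0.62 in WT, 0.10 in DR-RD and -0.20 in SxxS, *HOXB6* had 0.43 in WT and -0.20 in SxxS, and *HOXA2* had 0.96 in SxxS and -0.95 in DR-RD. None of these passed the edgeR test of treatment by line, with adjusted p values of 0.72 for *HOXB7*, 0.097 for *HOXB2*, 0.19 for *HOXB6* and 0.27 for *HOXA2*. Each WT value of *HOXB7* and *HOXB6* includes 1 outlying library, without which they were 0.18 and 0.22, whereas *HOXB2* was at 0.63. *HOXA2* rests on levels under 1 CPM in every library.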

How the results depend on the processing

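The counts of members called with arsenite over lines (28, range 27–30), with hydrogen peroxide over lines (10, range 7–15), for arsenite minus hydrogen peroxide (26, range 24–28), and with arsenite in the vector, DR-RD and SxxS lines stayed within 1.5 times under each of their alternatives, as did the 31 genes expressed in untreated cells (23 at 2 CPM per kilobase, 32 at 0.5). No gene value changed sign. Of 1330 values of called genes under alternatives 28 lost their call, 27 of them with hydrogen peroxide (*HOXA3*, *HOXA4* and *HOXA9*). Fits of only the groups compared gave 14 members for arsenite in WT, 0 for hydrogen peroxide in WT, 4 in vector, 0 in DR-RD and 4 in SxxS, and 3 for WT against vector. With a GC offset hydrogen peroxide gave 2 in vector, 5 in WT and 2 in DR-RD, and WT against vector 1. Without composition factors it gave 1 in vector and 2 in DR-RD, and without a filter 8 in WT and 0 in DR-RD and SxxS. DESeq2 called 2 in vector and 3 in DR-RD with hydrogen peroxide, 2 for WT against vector, and 1 and 2 for the arsenite and hydrogen peroxide tests by line. Without both outlying WT libraries there were 3 in vector, 3 in DR-RD and 5 in SxxS with hydrogen peroxide, 6 for WT against vector and 2 for hydrogen peroxide by line. Leaving out 1 library at a time gave 6–16 for hydrogen peroxide in WT, 0–0 in DR-RD and SxxS, and 0–2 for hydrogen peroxide by line (2 without WT hydrogen peroxide replicate 1). The WT count was 7, 7 and 6 without WT untreated replicates 1, 2 and 3 and 6 without WT hydrogen peroxide replicate 2. The cause of these shifts was not tested.

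Every same-numbered pair correlated above 0.1 in 3 of 66 pairs of groups, of which DR-RD untreated with DR-RD hydrogen peroxide is the one pair compared here. The others were WT hydrogen peroxide with SxxS arsenite and SxxS hydrogen peroxide with vector arsenite, which differ in line and treatment. The check therefore does not establish pairing in DR-RD, and the numbers did not pair the samples across the other groups compared. With the replicate number as a block, arsenite over lines gave 28 members and hydrogen peroxide in DR-RD 0, and with the block and a GC offset hydrogen peroxide gave 2 in vector, 4 in WT and 2 in DR-RD.

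Without a filter the median log2 fold change of all genes with arsenite moved from 0.06 to 0.17 and that of the members from -0.28 to -0.27. Low counts limit *HOXA2*, *HOXD12*, *HOXC12* and *HOXB1*. Members that share exons with another gene could gain or lose counts to it.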
